A study of Rattus norvegicus with 12 samples.

Results

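The loss of RBFOX2 was set directly against the loss of QKI in PAC-1 cells, a rat pulmonary artery smooth muscle line kept in its more differentiated state by weekly splitting. Per the study, differentiated cells of its RBPMS, RBFOX2 and QKI knockdown experiment were less differentiated than those of its other RNA-seq experiment. The comparison took the 3 libraries labelled FOX2-KD (RBFOX2 knockdown) and the 3 labelled QKI-KD (QKI knockdown), 6 of the 12 RNA-seq libraries of the series, over all 33294 genes of the count table. Of these, 18438 had enough counts to be tested. The 3 libraries labelled C2 were from cells given a control siRNA. They entered this comparison only through the count filter, the scaling and the estimate of spread. They are also shown beside it to place each level. They served as well to find genes that moved one way in RBFOX2 knockdown and the other way in QKI knockdown. The other 3 libraries came from an RBPMS knockdown and entered only the count filter, the scaling and the estimate of spread. All cells were unmodified PAC-1 cells that differed only in the siRNA given. Per the labels, each group received 90 pmol of siRNA, a second dose after 24 h, and was harvested 48 h after that, whereas the study's methods give longer intervals for its knockdowns. Each target was depleted with 1 siRNA, so effects of losing the target and effects of that siRNA on other transcripts cannot be told apart. The study's methods describe the siRNA knockdowns as repeated in biological replicates, and the labels give replicate numbers without naming the cultures, so p-values measure the spread between these libraries.

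RBFOX2 and QKI are both RNA-binding proteins that control alternative splicing and are known for their part in smooth muscle and other muscle programmes. RBFOX2 recognises GCAUG elements in introns near regulated exons, while QKI, a member of the STAR family, binds ACUAA elements and also acts on mRNA stability and circular RNA formation. Loss of either can alter mRNA abundance through spliced isoforms that are degraded or through the factors that those isoforms encode. Abundance per gene was measured here, and splicing was not analysed here.

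The siRNA sense strands are shown because they are the designed difference between the groups. Capitals mark the sense bases opposite bases 2 to 8 of the antisense strand, its seed, if that strand pairs along the whole printed length. The control strand is printed without capitals.
siRNA against RBFOX2: gcaaugguucaGCCUUUUa
siRNA against QKI (listed as QK): ggacuuacagcUAAACAAc
control siRNA C2: aagguccggcucccccaaaug
The RBFOX2 and QKI strands were both 19 bases long with a GC content of 42.1%, whereas the control strand was 21 bases long with a GC content of 61.9%. The marked stretches of the RBFOX2 and QKI siRNAs were different sequences, so no seed was shared between the compared groups.

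Library totals were 135321558, 137910283 and 133180352 counts in RBFOX2 knockdown and 132404764, 110595399 and 118593610 in QKI knockdown. Levels are given as CPM, counts divided by the TMM-scaled library total and multiplied by 1000000. The marker sums in this paragraph used the library total without that scaling. The scaling factors lay between 1.019 and 1.022 in RBFOX2 knockdown and between 1.039 and 1.046 in QKI knockdown. Replicates of a group correlated at 0.9992 or above on log2 CPM and still differed by more than sampling noise, with a chi-square per degree of freedom between 4.64 and 11.2. The 8 contractile smooth muscle markers summed to between 845 and 945 CPM in RBFOX2 knockdown, 1500 and 1590 CPM in QKI knockdown, and 2070 and 2150 CPM in control. Endothelial markers summed to at most 7.84 CPM in the 6 libraries, and leukocyte markers to between 2.55 and 3.24 CPM in RBFOX2 knockdown and 6.53 and 6.83 CPM in QKI knockdown. Epithelial markers summed to between 73.7 and 75.6 CPM in RBFOX2 knockdown, 39 and 42.6 CPM in QKI knockdown, and 29.5 and 31.7 CPM in control. Neuronal and glial markers summed to between 56.6 and 59.6 CPM in RBFOX2 knockdown, 24.4 and 25.5 CPM in QKI knockdown, and 60.3 and 67.9 CPM in control. Epithelial and neuronal marker sums were thus higher in RBFOX2 than in QKI knockdown, but 1 gene made up most of each. Krt8 averaged 72.6 CPM in RBFOX2 knockdown and 32.3 CPM in QKI knockdown, and Map2 averaged 49.5 and 17.3 CPM. By the thresholds used below, 1 of 4 epithelial markers tested was higher in RBFOX2 knockdown and 3 in QKI knockdown. Of 6 neuronal and glial markers these were 2 and 1, beside 10.6% and 7.74% of all genes tested. Of the 8 leukocyte markers 1, the pan-leukocyte gene Ptprc, stayed at or under 3 counts in each library of the 3 groups, and the part of such cells, and of epithelial and neuronal cells, in the results was not tested. In these bulk samples, fewer cells of a type and less RNA per cell cannot be told apart.

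Each siRNA lowered its own target. Rbfox2 stood at 37.8, 36.2 and 37.9 CPM in the RBFOX2 knockdown libraries and at 139, 141 and 137 CPM in the QKI knockdown libraries. This was 3.73-fold lower in RBFOX2 knockdown (log2 fold change -1.90, SE 0.043, edgeR adjusted p = 4.5e-16), with no overlap, against a control mean of 154 CPM. Qk, the gene of QKI, stood at 172, 175 and 175 CPM in RBFOX2 knockdown and 26, 26.5 and 27.3 CPM in QKI knockdown, a 6.54-fold difference (log2 fold change 2.71, SE 0.039, edgeR adjusted p = 1.55e-18). The QKI siRNA thus left a smaller share of its target than the RBFOX2 siRNA did. Against control, the log2 fold change of Rbfox2 was -2.05 in RBFOX2 knockdown and -0.15 in QKI knockdown, and that of Qk was -0.42 in RBFOX2 knockdown and -3.13 in QKI knockdown. Qk was therefore lower than control in both knockdowns, though in RBFOX2 knockdown the difference did not reach the fold threshold.

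Among the paralogues and partner factors, Rbpms2, which encodes a paralogue of the smooth muscle splicing regulator RBPMS, was the only one besides the targets and the barely detected Rbfox1 to pass both thresholds. It stood at 18.9, 19.6 and 19.3 CPM in RBFOX2 knockdown and 58.1, 53.2 and 58.4 CPM in QKI knockdown, 2.94-fold higher in the latter (log2 fold change -1.55, SE 0.059, edgeR adjusted p = 2.5e-13). The control mean of 37.8 CPM lay between them, with log2 fold changes of -0.97 in RBFOX2 knockdown and 0.58 in QKI knockdown, neither past the fold threshold. Rbpms itself differed by -0.33 on the log2 scale (SE 0.059). The splicing factors Mbnl1, Mbnl2 and Mbnl3 had direct log2 fold changes of 0.13, 0.40 and -0.21, none past the fold threshold. Against control, Rbpms had -0.81 in RBFOX2 knockdown and -0.49 in QKI knockdown. In the same order Mbnl1 had -0.36 and -0.49, Mbnl2 0.48 and 0.08, and Mbnl3 0.98 and 1.19. Of these values only that of Mbnl3 in QKI knockdown passed the fold threshold. Rbfox1 held 18 counts or fewer in every library of the 3 groups, and its call (log2 fold change 1.17, SE 0.44, edgeR adjusted p = 0.0277) was lost in DESeq2 (adjusted p = 0.066). Reads shared between such close paralogues could have been split or dropped in counting, which is not stated, so their values are uncertain to that extent.

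In all, 3389 genes (18.4%) were changed between the 2 knockdowns, the thresholds being an adjusted p of 0.05 and a log2 fold change of 1 in either direction. Of these, 1961 (10.6% of those tested) were higher in RBFOX2 knockdown and 1428 (7.74%) were higher in QKI knockdown. At the adjusted p alone 12636 genes (68.5%) differed, with a median absolute log2 fold change of 0.569. The libraries of the 2 groups did not overlap for 13859 genes (75.2%), including 3337 of the 3389 changed genes. The median log2 fold change over all genes tested was 0.00729. Many changed genes were weakly expressed, since 1164 of them averaged under 50 counts per library. Among the 10661 genes at 5 CPM or more, 1134 were changed, 777 higher in RBFOX2 knockdown and 357 higher in QKI knockdown. Against control the same thresholds gave 2156 changed genes in RBFOX2 knockdown (11.7%) and 3231 in QKI knockdown (17.5%), 2 comparisons that share the control libraries.

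**Figure D1:**
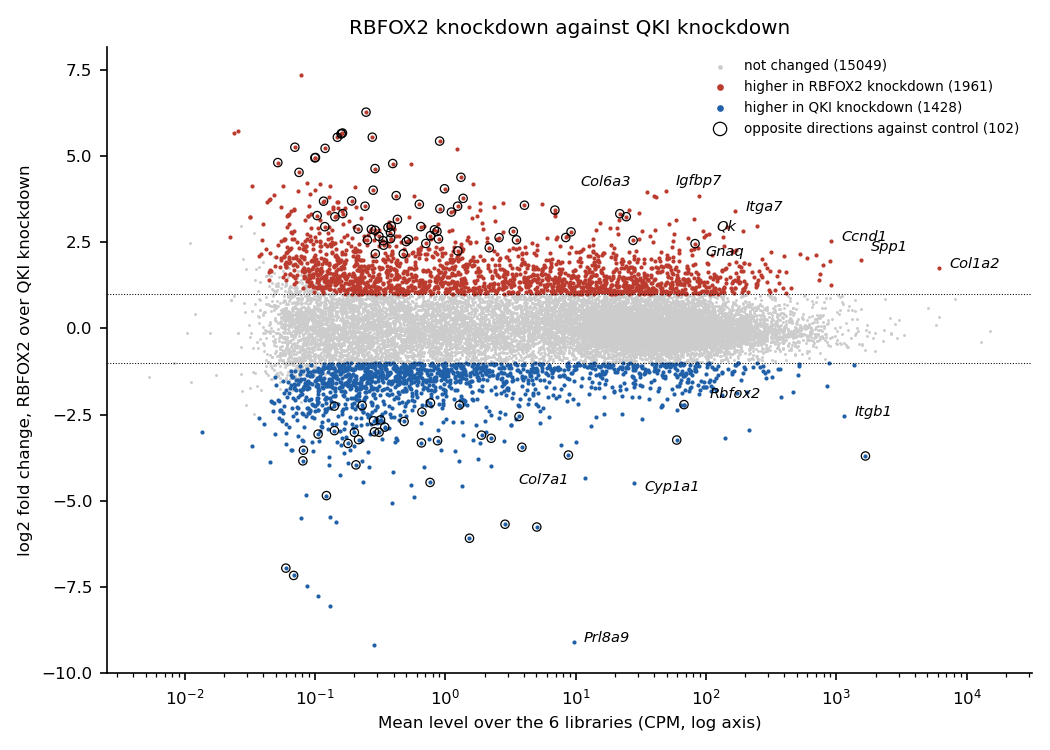
Each point is 1 of the 18438 genes tested, with its mean level over the 6 libraries in CPM on a log axis and its log2 fold change of RBFOX2 over QKI knockdown, where dotted lines mark an absolute value of 1, colours mark the genes changed and circles mark the 102 genes that changed in opposite directions against control. Coloured points are dense at the low levels on the left, while Itgb1 lies far below 0 and Ccnd1, Spp1 and Col1a2 above it at 100 CPM or more.

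Among genes at 5 CPM or more, those with the largest excess in RBFOX2 knockdown were Igfbp7, Col6a3, Npnt and Esm1, which all encode secreted proteins. Igfbp7, a secreted binding protein of insulin-like growth factors, stood at 96.8, 93.5 and 85.9 CPM in RBFOX2 knockdown and 5.8, 6.39 and 5.27 CPM in QKI knockdown, 15.8-fold higher in the former (log2 fold change 3.99, SE 0.086, edgeR adjusted p = 2.41e-16). Col6a3, a chain of collagen VI, stood at 66.8, 64.3 and 68.2 CPM against 4.24, 4.72 and 3.87 CPM (log2 fold change 3.96, SE 0.11, edgeR adjusted p = 2.88e-15). Npnt, which encodes the integrin ligand nephronectin, stood at 75.9, 74.2 and 75.2 CPM against 4.68, 5.86 and 5.06 CPM (log2 fold change 3.86, SE 0.082, edgeR adjusted p = 2.12e-16). In each of the 3 genes the groups did not overlap, which the rule for naming them required. The control means were nearer to RBFOX2 than to QKI knockdown, at 128, 43.4 and 48.8 CPM. Esm1, the proteoglycan endocan, stood at 164, 163 and 164 CPM against 10.8, 12.2 and 11.4 CPM, a 14.3-fold difference (log2 fold change 3.83, SE 0.041). Scara5 (a ferritin receptor), Itga7 (the integrin alpha 7 subunit), Fcgr2a (an Fc receptor) and Srgap3 (a GTPase-activating protein) had log2 fold changes between 3.33 and 3.44.

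Another of the largest differences, that of Smpd3, which encodes a neutral sphingomyelinase, came from a high level in RBFOX2 knockdown alone among the 3 groups. Smpd3 stood at 61.5, 51.9 and 53.4 CPM in RBFOX2 knockdown, 6.03, 5.39 and 4.98 CPM in QKI knockdown and 4.59, 4.42 and 4.79 CPM in control. Its direct log2 fold change was 3.34 (SE 0.13, edgeR adjusted p = 3.07e-13), and against control it was 3.60 in RBFOX2 knockdown and 0.25 in QKI knockdown. For Igfbp7 the same values were -0.48 and -4.46, for Esm1 -0.51 and -4.34, and for Itga7 0.47 and -2.93. The direct difference thus lay mainly in a low level in QKI knockdown for these 3 genes and in a high level in RBFOX2 knockdown for Smpd3.

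Among genes at 5 CPM or more without a placeholder symbol, the largest excess in QKI knockdown was that of Prl8a9. This gene belongs to the placental prolactin family. It was all but silent outside QKI knockdown, with 4, 8 and 2 counts in the RBFOX2 knockdown libraries, 6, 2 and 3 counts in control and 2896, 2145 and 2246 counts in QKI knockdown. This gave 20.9, 18.7 and 18.1 CPM in QKI knockdown (direct log2 fold change -9.11, SE 0.22, edgeR adjusted p = 8.84e-16), a fitted value that depends on the prior count where counts are this few. The prolactin family holds close copies, so reads of another member cannot be told apart from its own. Cyp1a1, a xenobiotic-metabolising cytochrome P450, stood at 1.97, 2.69 and 2.56 CPM in RBFOX2 knockdown and 50.3, 50.2 and 61.3 CPM in QKI knockdown, 22.4-fold higher in the latter (log2 fold change -4.49, SE 0.20, edgeR adjusted p = 2.8e-12). Col7a1, the collagen of anchoring fibrils, stood at 1.01, 1.24 and 1.07 CPM against 21.5, 24 and 21.7 CPM (log2 fold change -4.34, SE 0.10, edgeR adjusted p = 3.18e-16). In all 3 genes the libraries of the 2 groups did not overlap, which the rule for naming them required. The placeholder RGD1560455, left out of this ranking, had a direct log2 fold change of -5.76 at a mean of 5.03 CPM over the 6 libraries.

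Il1rl2, the receptor of interleukin 36, stood at 1.81, 1.87 and 1.92 CPM in RBFOX2 knockdown and 16.5, 18.8 and 19.6 CPM in QKI knockdown (log2 fold change -3.29, SE 0.12, edgeR adjusted p = 1.06e-13). Sypl1, which encodes a synaptophysin-like vesicle protein, stood at 27, 28.7 and 27.6 CPM against 249, 256 and 257 CPM (log2 fold change -3.19, SE 0.036), and Tmed7, a cargo receptor of the early secretory pathway, at 48.5, 50.1 and 49 CPM against 375, 385 and 369 CPM (log2 fold change -2.94, SE 0.033). These 2 genes of the secretory route differed in where control lay. Sypl1 had log2 fold changes against control of -2.58 in RBFOX2 knockdown and 0.61 in QKI knockdown, while Tmed7 had -0.44 and 2.499. Arid3a, an AT-rich DNA-binding transcription factor, had a direct log2 fold change of -3.39 (SE 0.13). Tll1 and Sumf1, with direct log2 fold changes of -3.67 and -3.24, were also among those that moved in opposite directions.

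Changed genes with the most counts, which also depend on transcript length, included Col1a2, Spp1, Col6a2, Ccnd1 and Cyp1b1 on the side of RBFOX2 knockdown and Itgb1, Ftl1, Sqstm1 and Zwint on that of QKI knockdown. Col1a2, a chain of collagen I, stood at 9828, 9338 and 9505 CPM in RBFOX2 knockdown and 2723, 3068 and 2618 CPM in QKI knockdown, 3.41-fold higher in the former (log2 fold change 1.77, SE 0.064, edgeR adjusted p = 1.28e-13). Spp1, which encodes osteopontin, stood at 2408, 2516 and 2449 CPM against 602, 551 and 688 CPM (log2 fold change 2.00, SE 0.079, edgeR adjusted p = 4.33e-13). Ccnd1, the D cyclin of G1 progression, stood at 1549, 1562 and 1561 CPM against 268, 261 and 276 CPM (log2 fold change 2.54, SE 0.037, edgeR adjusted p = 1.68e-18). All 3 genes separated the groups without overlap. The control means of Col1a2 (4185 CPM) and Ccnd1 (1262 CPM) lay between them, while that of Spp1 (3725 CPM) lay above both. On the other side, Itgb1, the integrin beta 1 subunit, stood at 331, 343 and 331 CPM in RBFOX2 knockdown and 1945, 1963 and 1970.2 CPM in QKI knockdown, 5.85-fold lower in the former (log2 fold change -2.55, SE 0.031, edgeR adjusted p = 2.07e-19). Zwint, a kinetochore protein, had a log2 fold change of -1.66 (SE 0.047). Ftl1, the ferritin light chain, and Sqstm1, the autophagy receptor p62, lay close to the fold threshold at -1.06 and -1.01, and Sqstm1 fell short of it without QKI-KD 3 (-0.97).

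A gene was counted as moving in opposite directions when it was changed against control in both knockdowns with opposite signs, and 102 genes met this. Of these, 66 were higher in RBFOX2 knockdown and lower in QKI knockdown than control, and 36 were the reverse. Both comparisons use the same control libraries, and the direct difference of these genes follows from how they were chosen, so their values are given as a description. Most lay at low levels, with a median of 0.353 CPM over the 9 libraries for the 66 and 0.35 CPM for the 36, and 34 of the 66 and 18 of the 36 averaged under 50 counts. Of the 66, 7 lay at 5 CPM or more, and of the 36, 4 did. The control libraries lay between the 2 knockdowns without overlap in 59 of the 66 and 31 of the 36. This position, too, follows largely from how the genes were chosen, and its share over all genes was not counted. The median log2 fold changes of the 66 were 1.41 in RBFOX2 knockdown and -1.69 in QKI knockdown, and those of the 36 were -1.53 and 1.47. Just inside the threshold, by the smaller of the 2 absolute changes, were the uncharacterised LOC120102660 at 1.00026 and Trpc6 at 1.00446, and just outside were Deup1 at 0.998 and LOC120096831 at 0.997. The counts depended on the method: with no fold threshold they were 1372 and 1200, with a test against the fold threshold itself (glmTreat) 7 and 2, with a mean of at least 200 counts 11 and 7, and by limma, on the normalised values the authors deposited, 34 and 19 with a pseudocount of 1 and 17 and 9 with a pseudocount of 10.

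**Figure D2:**
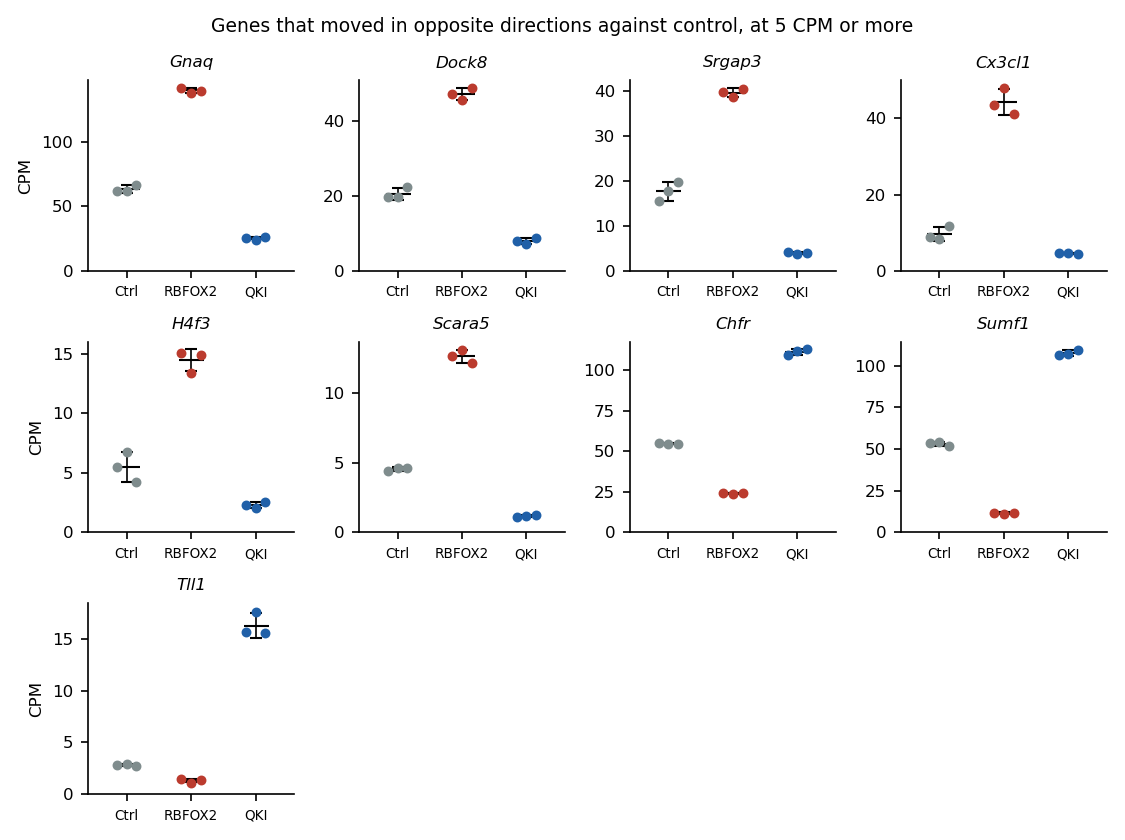
CPM of 9 genes with opposite changes and a mean of 5 CPM or more over 9 libraries, 1 panel a gene, where points are libraries (3 per group), the horizontal mark is the mean and the bar is 1 SD. The first 6 panels, Gnaq to Scara5, are highest in RBFOX2 knockdown and lowest in QKI knockdown, and the last 3, Chfr, Sumf1 and Tll1, are the reverse.

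Of the 36 genes lower in RBFOX2 and higher in QKI knockdown, Tll1, Sumf1 and Chfr were among those at 5 CPM or more. Tll1, a tolloid-like protease that processes procollagens and BMP antagonists, stood at 1.43, 1.1 and 1.3 CPM in RBFOX2 knockdown, 2.83, 2.88 and 2.75 CPM in control and 15.6, 17.7 and 15.6 CPM in QKI knockdown. Its log2 fold changes against control were -1.14 (SE 0.10) and 2.53 (SE 0.083), so the larger departure was in QKI knockdown.

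Sumf1 encodes the enzyme that makes the formylglycine of sulfatases, and Chfr encodes a ubiquitin ligase of an early mitotic checkpoint. Sumf1 stood at 11.5, 10.8 and 11.9 CPM in RBFOX2 knockdown, 53.5, 54.4 and 52 CPM in control and 106, 107 and 109.6 CPM in QKI knockdown. Chfr stood at 24.1, 23.9 and 24.2 CPM in RBFOX2 knockdown, 54.9, 54.4 and 54.7 CPM in control and 109, 112 and 113 CPM in QKI knockdown. The libraries of each group lay close together in both genes, and the 3 groups were ordered the same way. In RBFOX2 knockdown the log2 fold change against control was -2.22 (SE 0.043) for Sumf1 and -1.18 (SE 0.033) for Chfr. In QKI knockdown it was 1.02 (SE 0.039) and 1.03 (SE 0.032), close to the fold threshold, and that of Sumf1 fell to 0.996 without control 3.

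Of the 7 genes in the other direction, Gnaq, the alpha subunit of the G protein Gq that couples contractile agonist receptors to phospholipase C, had the highest CPM. It stood at 142, 137 and 139 CPM in RBFOX2 knockdown, 61.7, 61.7 and 66.4 CPM in control and 25.7, 24.2 and 26 CPM in QKI knockdown, with log2 fold changes against control of 1.14 (SE 0.039) and -1.32 (SE 0.041). Dock8, an exchange factor for the GTPase Cdc42, stood at 47.1, 45.5 and 48.8 CPM in RBFOX2 knockdown, 19.7, 19.6 and 22.4 CPM in control and 8.03, 7.22 and 8.75 CPM in QKI knockdown. Srgap3, which acts on Rac below Robo receptors, stood at 39.9, 38.6 and 40.5 CPM in RBFOX2 knockdown, 15.6, 17.8 and 19.8 CPM in control and 4.19, 3.65 and 3.94 CPM in QKI knockdown. In these 3 genes of G protein and small GTPase signalling, every RBFOX2 knockdown library exceeded every control library and every QKI knockdown library lay below control. The log2 fold changes against control were 1.20 and -1.36 for Dock8, and 1.16 and -2.17 for Srgap3.

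Cx3cl1, the membrane-tethered chemokine fractalkine, stood at 43.5, 47.9 and 41.1 CPM in RBFOX2 knockdown, 8.92, 8.28 and 11.8 CPM in control and 4.72, 4.73 and 4.52 CPM in QKI knockdown. Its log2 fold change against control was 2.19 (SE 0.10) in RBFOX2 knockdown and -1.05 (SE 0.10) in QKI knockdown, and the latter was -0.89 without control 3, under the fold threshold. Scara5 stood at 12.7, 13.1 and 12.2 CPM in RBFOX2 knockdown, 4.4, 4.61 and 4.64 CPM in control and 1.12, 1.15 and 1.24 CPM in QKI knockdown. Against control these were log2 differences of 1.48 and -1.96. Both genes kept the same order of groups without overlap. The histone H4 gene H4f3 stood at 15.1, 13.4 and 14.9 CPM in RBFOX2 knockdown, 5.48, 6.75 and 4.24 CPM in control and 2.35, 2.04 and 2.55 CPM in QKI knockdown, but near-identical histone H4 genes may share reads and its value is uncertain. Beneath 5 CPM, Trpc6, a calcium-permeable channel opened by diacylglycerol, stood at 0.434, 0.455 and 0.441 CPM in RBFOX2 knockdown, 0.882, 0.765 and 1.03 CPM in control and 4.01, 3.64 and 4.49 CPM in QKI knockdown. Its change in RBFOX2 knockdown (-1.004, SE 0.15) dropped below the fold threshold with library totals only (-0.95) and without control 3 (-0.89) and, by a small margin, without RBFOX2-KD 1. Cldn4, an epithelial claudin, stood at 0.0578, 0.149 and 0.118 CPM in RBFOX2 knockdown, 0.278, 0.524 and 0.294 CPM in control and 4.94, 6.61 and 5.32 CPM in QKI knockdown, which gave log2 fold changes against control of -1.76 and 3.92.

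The contractile markers differed in both directions, 5 lower and 3 higher in RBFOX2 than in QKI knockdown at the adjusted p alone, which 68.5% of all genes passed. Of all 8, only 2 (25%) passed the fold threshold as well, against 18.4% of all genes, both lower in RBFOX2 knockdown. Tagln, the actin-binding protein transgelin, stood at 354, 327 and 305 CPM in RBFOX2 knockdown and 714, 679 and 718 CPM in QKI knockdown (log2 fold change -1.10, SE 0.054, edgeR adjusted p = 9.02e-12), where the QKI knockdown libraries overlapped those of control, with a mean of 687 CPM. Cnn1, calponin 1, stood at 1.52, 1.02 and 1.08 CPM against 4.75, 4.38 and 4.77 CPM (log2 fold change -1.94, SE 0.12, edgeR adjusted p = 1.92e-10). Acta2, smooth muscle alpha-actin, stood at 250.2, 228 and 210.0 CPM against 435, 425 and 473 CPM, below its control mean of 989.8 CPM in both. Its direct log2 fold change of -0.95 (SE 0.055) missed the threshold and passed it without RBFOX2-KD 1 (-1.03). Myl9, the regulatory myosin light chain, and Myocd, the coactivator of smooth muscle transcription, had log2 fold changes of -0.51 and -0.74.

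The other 3 markers had higher levels in RBFOX2 knockdown than in QKI knockdown, without reaching the fold threshold. Myh11, the smooth muscle myosin heavy chain, stood at 12.8, 13.6 and 13.7 CPM against 7.07, 6.59 and 8.48 CPM (log2 fold change 0.86, SE 0.078), Smtn (smoothelin) at 140.2, 142 and 145 against 89.6, 89.3 and 94.4 CPM (0.65), and Mylk (myosin light chain kinase) at 2.85, 2.48 and 2.25 against 1.52, 1.28 and 1.51 CPM (0.81). The median log2 fold change of the 8 was -0.628, beside 0.00729 over all genes. Among 29 further actin, myosin and thin filament genes, 8 (27.6%) were changed, beside 18.4% of all genes. Of these, 7 were higher in RBFOX2 knockdown and 1 in QKI knockdown, and the list median was 0.302. The scaffold genes Svil (supervillin, log2 fold change 2.06) and Synpo2 (synaptopodin 2, 1.92), the kinase gene Rock2 (1.64) and the filament nucleator gene Lmod1 (leiomodin 1, 1.63) were among the 7. Rock1, the paralogue of Rock2, had -0.73. Of 14 transcription factors of smooth muscle, 2 (14.3%) were changed, below the 18.4% of all genes. These were Mef2a (1.62) and Klf4 (1.18), both higher in RBFOX2 knockdown.

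**Figure D3:**
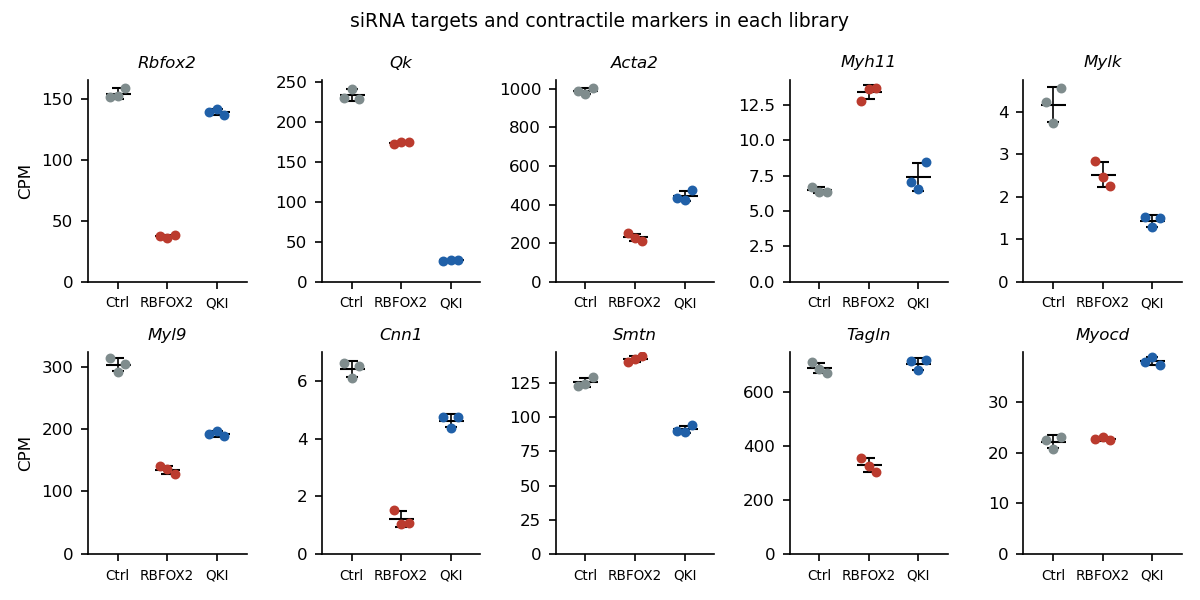
CPM of the 2 siRNA targets and the 8 contractile markers in control, RBFOX2 knockdown and QKI knockdown, where points are libraries (3 per group), the horizontal mark is the mean and the bar is 1 SD. Rbfox2 is lowest under its own siRNA and Qk under its own, while Tagln and Cnn1 are lowest in RBFOX2 knockdown and Mylk and Smtn in QKI knockdown.

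Gene lists were taken up by role, and the share of changed members is set beside that of all genes, 10.6% higher in RBFOX2 knockdown and 7.74% higher in QKI knockdown. A value in parentheses after a gene is its direct log2 fold change, positive where RBFOX2 knockdown was higher, and a median is that of the direct log2 fold changes over the members tested. Among the integrins, the receptors that tie cells to matrix, 7 of 17 tested were changed, 5 higher in RBFOX2 knockdown and 2 higher in QKI knockdown, with a median log2 fold change of 0.615. Itga7, the alpha subunit of a laminin receptor of muscle, stood at 299.5, 304 and 308 CPM in RBFOX2 knockdown and 28.7, 29.5 and 28.2 CPM in QKI knockdown (log2 fold change 3.40, SE 0.037, edgeR adjusted p = 7.72e-20). Its partner subunit Itgb1 differed in the reverse direction (-2.55), with a control mean of 2147 CPM nearer to QKI knockdown. Itgb8, a subunit of a receptor that releases active TGF-beta, stood at 28.5, 26 and 28.4 against 3.04, 3.9 and 3.02 CPM (log2 fold change 3.06, SE 0.10). The RBFOX2 knockdown libraries exceeded all QKI knockdown libraries for Itga7 and Itgb8 and lay below all of them for Itgb1. Itgb5 (1.42) and Itga3 (1.20) were also higher in RBFOX2 knockdown and Itga8 (-1.17) higher in QKI knockdown, while the fifth gene higher in RBFOX2 knockdown, Itgb7, lay under 1 CPM and lost its call in DESeq2 (0.99) and 10 other alternatives.

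Of the 13 genes of the dystrophin glycoprotein complex, which links the cytoskeleton to laminin, 7 were changed, 6 higher in RBFOX2 knockdown and 1 higher in QKI knockdown (median 0.754). Sgcd (delta-sarcoglycan) stood at 2.53, 2.5 and 2.58 CPM in RBFOX2 knockdown and 0.823, 0.826 and 0.452 CPM in QKI knockdown (log2 fold change 1.85, SE 0.16, edgeR adjusted p = 2.03e-08). Sntb2 (beta-2 syntrophin, 1.51) and Utrn (utrophin, 1.29) were higher in RBFOX2 knockdown too. Dag1, which encodes both dystroglycan subunits, was the exception, at 90.6, 92.4 and 88.4 CPM against 319, 326 and 325 CPM (log2 fold change -1.84, SE 0.045, edgeR adjusted p = 8.97e-16). It resembled Itgb1 in that RBFOX2 knockdown departed from the control mean of 409.6 CPM by -2.18 on the log2 scale and QKI knockdown by -0.34. Of 22 focal adhesion and linker genes, 2 were changed, Lims1 (PINCH, 1.02) and Parvb (beta-parvin, -1.54), a share of 9.09%. Of 11 cadherin and catenin genes, 4 were changed, Cdh3 (1.83) and Cdh2 (1.07) higher in RBFOX2 knockdown and Ctnnb1 (beta-catenin, -1.23) and a gene under 1 CPM higher in QKI knockdown. The call of Lims1 was lost with library totals only (0.99) and without RBFOX2-KD 2 (0.9954).

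Of 21 collagen genes tested, 8 were higher in RBFOX2 knockdown and 1 in QKI knockdown (median 0.659). The 3 chains of collagen VI were among the 8, Col6a3 at 3.96, Col6a2 at 1.26 (SE 0.032) and Col6a1, named after its value was seen, at 1.84 (SE 0.038). Col6a2 stood at 1302, 1289.7 and 1283 CPM in RBFOX2 knockdown against 529, 540.4 and 547 CPM in QKI knockdown. Col8a1 (2.22), Col18a1 (2.14) and Col15a1 (1.86) were higher in RBFOX2 knockdown as well. Col7a1 (-4.34) was the single collagen higher in QKI knockdown. The 2 chains of collagen I parted, since Col1a1 stood at 15369, 13960.1 and 14615 CPM against 15219, 16937 and 14452 CPM (log2 fold change -0.085, SE 0.071, edgeR adjusted p = 0.303), with overlapping libraries, while Col1a2 was 3.41-fold higher in RBFOX2 knockdown. Against control, Col1a1 had log2 fold changes of 0.94 in RBFOX2 knockdown and 1.02 in QKI knockdown, and Col1a2 had 1.19 and -0.58.

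Of 25 proteoglycan and matricellular genes, 8 were higher in RBFOX2 knockdown and 1 in QKI knockdown (median 0.768). Against control the list medians were -0.439 in RBFOX2 knockdown and -1.16 in QKI knockdown. Spp1 (2.00), Dcn (decorin, 2.04), Ogn (osteoglycin, 1.85) and Prelp (1.85) were higher in RBFOX2 knockdown, and Ccn4, a Wnt-induced matricellular protein, at 47.8, 48.6 and 44.1 CPM against 147, 156 and 152 CPM, was higher in QKI knockdown (-1.70, SE 0.048). Of 27 elastic fibre and basement membrane genes, 7 were changed, 4 and 3 in the 2 directions (median 0.0725). Eln, the gene of elastin, stood at 461, 474 and 433 CPM in RBFOX2 knockdown and 141, 139.8 and 124 CPM in QKI knockdown (log2 fold change 1.76, SE 0.14, edgeR adjusted p = 5.68e-09), without overlap. Its control mean of 762 CPM lay above both. The latent TGF-beta binding proteins did not share a direction, Ltbp1 at 1.89 and Ltbp4 at -1.69. Of 24 proteases and their inhibitors, 6 were changed, 3 in each direction (median -0.278). The inhibitor gene Serpine2 (protease nexin 1) stood at 381, 392 and 381 CPM in RBFOX2 knockdown and 115, 121 and 129 CPM in QKI knockdown (log2 fold change 1.66, SE 0.049). Serpine2 had a control mean of 665 CPM, above both knockdowns. Timp3, an inhibitor of matrix metalloproteinases, had 1.10, and 0.95 in the authors' normalised table.

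In the nitric oxide and cyclic nucleotide pathway, which relaxes smooth muscle, 8 of 19 genes were changed, 4 in each direction (median 0.0286). Both chains of soluble guanylate cyclase, the nitric oxide receptor, were higher in RBFOX2 knockdown. Gucy1b1 stood at 103, 113 and 100.4 CPM against 11, 12.4 and 11.9 CPM (log2 fold change 3.16, SE 0.088, edgeR adjusted p = 4.62e-15) and Gucy1a1 at 11.3, 14.3 and 11.9 CPM against 1.1, 1.48 and 1.33 CPM (log2 fold change 3.27, SE 0.21, edgeR adjusted p = 3.43e-10). The groups did not overlap for either chain, and Gucy1b1 lay below its control mean of 261 CPM in both knockdowns. The cyclic nucleotide phosphodiesterases Pde1c (2.81) and Pde1a (1.36) were higher in RBFOX2 knockdown, and Pde4b (-1.03) and the natriuretic peptide receptor gene Npr2 (-1.18) were higher in QKI knockdown. Pde4b lay close to the threshold and missed it without RBFOX2-KD 1 (-0.98) or QKI-KD 2 (-0.95).

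Among 26 receptors and ligands of vasoactive signalling, 6 were higher in RBFOX2 knockdown and 3 in QKI knockdown (median -0.241). The endothelin receptor gene Ednra stood at 31, 32.9 and 30.9 CPM in RBFOX2 knockdown and 7.37, 6.63 and 6.68 CPM in QKI knockdown (log2 fold change 2.19, SE 0.085, edgeR adjusted p = 3.71e-13), while its ligand gene Edn1 had -1.29, higher in QKI knockdown. F2r, the thrombin receptor, stood at 76.7, 78.4 and 75.7 against 21.1, 21 and 21.9 CPM (log2 fold change 1.85, SE 0.038), with a control mean of 135 CPM above both. The other endothelin receptor gene, Ednrb (1.98), was higher in RBFOX2 knockdown, and the prostaglandin F receptor gene Ptgfr (-1.29) and the bradykinin receptor gene Bdkrb1 (-1.02) higher in QKI knockdown.

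Among 38 ligands and receptors of the PDGF, FGF, EGF, HGF and VEGF families, 12 were higher in RBFOX2 knockdown and 3 in QKI knockdown (median 0.482). Both angiopoietins, ligands of the receptor Tie2, were among the 12. Angpt2 stood at 39, 38.5 and 33.3 CPM in RBFOX2 knockdown and 5.26, 6.75 and 4.49 CPM in QKI knockdown (log2 fold change 2.75, SE 0.16, edgeR adjusted p = 1.16e-10), and Angpt1 at 10.9, 11 and 9.01 against 1.56, 1.81 and 1.61 CPM (log2 fold change 2.64, SE 0.12). Pdgfd (2.88) and the Axl ligand gene Gas6 (1.87) were higher in RBFOX2 knockdown, and the lymphatic growth factors Vegfc (-1.70) and Vegfd (-1.15) higher in QKI knockdown. Of 13 genes of the insulin-like growth factor axis, 3 were changed, all higher in RBFOX2 knockdown (median 0.59), among them Igfbp7 and the adaptor gene Irs1 (1.08), which fell short of the fold threshold in the authors' normalised table (0.91).

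Of 45 genes of the TGF-beta and BMP pathway, 8 were higher in RBFOX2 knockdown and 6 in QKI knockdown (median -0.0573). The ligand gene Bmp2 stood at 6.98, 6.97 and 6.6 CPM in RBFOX2 knockdown and 35.8, 37.2 and 41.4 CPM in QKI knockdown (log2 fold change -2.48, SE 0.10, edgeR adjusted p = 3.64e-13). The ligand genes Tgfb2 (1.87), Tgfb3 (1.15), Inhbb (1.70) and Gdf6 (1.58) were higher in RBFOX2 knockdown, whereas the receptor gene Tgfbr1 (-1.20) and the follistatin-like gene Fstl3 (-1.06) were higher in QKI knockdown. Of 37 Wnt and Notch genes, 8 were higher in RBFOX2 knockdown and 4 in QKI knockdown (median 0.538). Wnt4 stood at 9.13, 8.37 and 9.43 CPM against 55.2, 57.8 and 53.5 CPM (log2 fold change -2.63, SE 0.09, edgeR adjusted p = 6.45e-14), and Axin2, a target and inhibitor of Wnt signalling, differed the same way (-1.43). Notch3, the Notch receptor typical of arterial smooth muscle, stood at 27.5, 30.4 and 22 CPM in RBFOX2 knockdown and 5.48, 6.7 and 5.28 CPM in QKI knockdown (log2 fold change 2.20, SE 0.18), below its control mean of 75.6 CPM in both. The Wnt receptor genes Fzd8 (1.64) and Lrp5 (1.29) were higher in RBFOX2 knockdown.

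**Figure D4:**
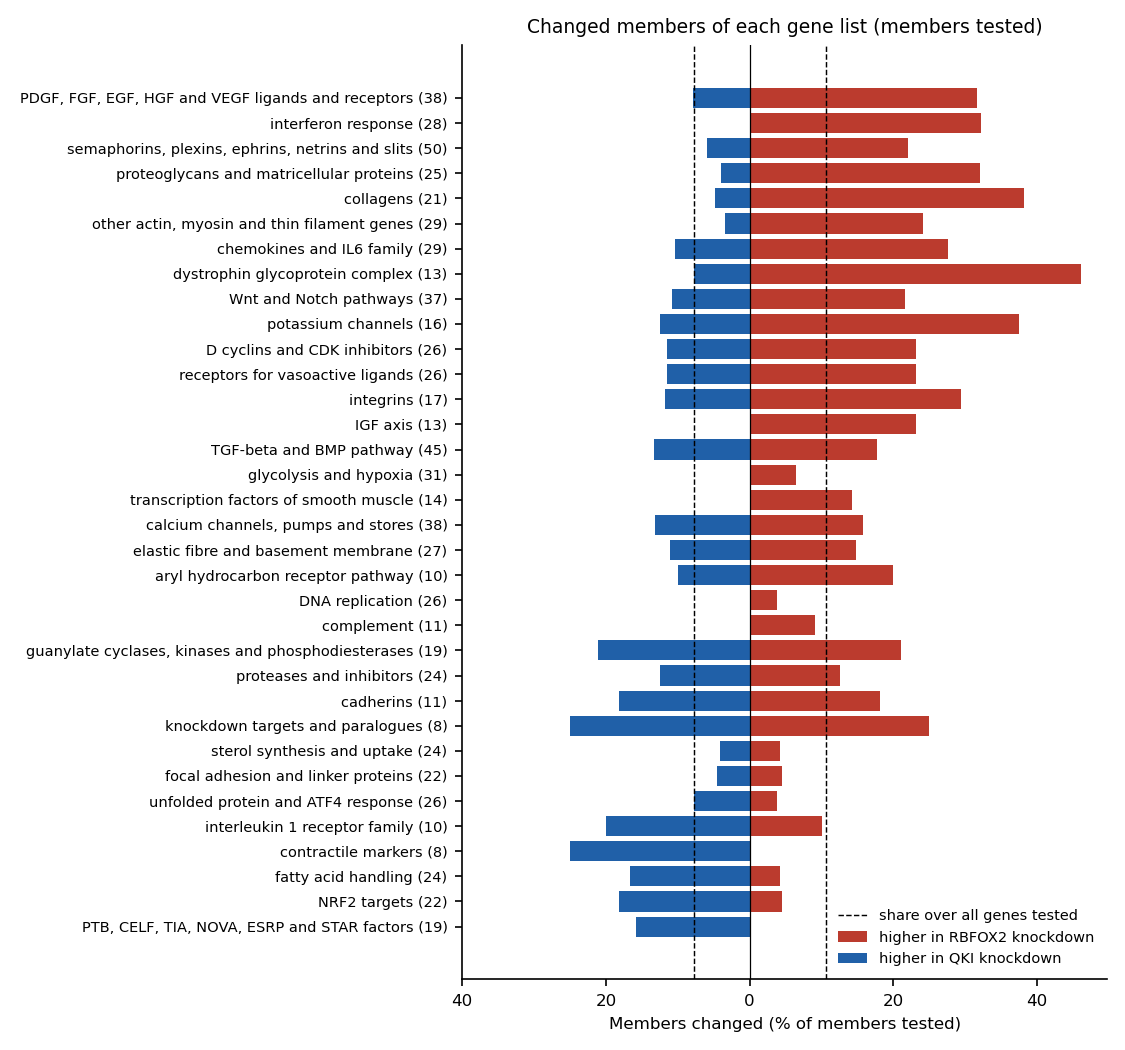
Share of tested members of each gene list that were changed, with red bars to the right for genes higher in RBFOX2 knockdown and blue bars to the left for genes higher in QKI knockdown, the number of members tested in brackets and dashed lines at the shares over all 18438 genes (10.6% and 7.74%). Lists without a changed member and the lists of markers of other cell types are left out. Among the lists shown, the widest red bar is that of the dystrophin glycoprotein complex, with 6 of 13.

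Of 28 interferon response genes tested, 9 were higher in RBFOX2 knockdown and 0 in QKI knockdown by edgeR (median 0.86). At the adjusted p alone 21 were higher in RBFOX2 knockdown and 1 in QKI knockdown, beside 6458 and 6178 of all 18438 genes. The antiviral GTPase gene Mx2 stood at 42.2, 29.8 and 24.5 CPM in RBFOX2 knockdown and 4.76, 4.72 and 3.27 CPM in QKI knockdown (log2 fold change 2.92, SE 0.18, edgeR adjusted p = 1.95e-10). Irf7, the transcription factor of the type I response, stood at 80.6, 62.9 and 53.5 CPM against 19.4, 22 and 17.2 CPM (log2 fold change 1.75, SE 0.12, edgeR adjusted p = 4.6e-10). For both genes RBFOX2-KD 1 was the highest library and the groups did not overlap. Against control, Irf7 had 1.72 in RBFOX2 knockdown and -0.027 in QKI knockdown. Mx1, at 3.36, 3.15 and 2.24 CPM against 0.736, 0.505 and 0.29 CPM, and Oas1a (log2 fold change 1.98) were higher in RBFOX2 knockdown too, with the reservation that the Mx and Oas genes have close copies.

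Of 29 chemokine and interleukin 6 family genes, 8 were higher in RBFOX2 knockdown and 3 in QKI knockdown (median 0.0401). Next to Cx3cl1, the leukocyte adhesion molecule gene Vcam1 (2.02), the chemokine gene Ccl7 (1.92) and the macrophage growth factor gene Csf1 (1.55) were higher in RBFOX2 knockdown. Csf1 stood at 402, 392 and 396 CPM against 133, 129 and 143 CPM, whereas its receptor gene Csf1r, which is also a leukocyte marker, stood at 0.549, 0.562 and 0.94 CPM against 3.97, 3.3 and 3.61 CPM and was higher in QKI knockdown (-2.41, SE 0.17). Cxcl12, a chemokine of stromal cells, was higher in QKI knockdown, at 309, 283 and 268 CPM against 733, 745 and 703 CPM (log2 fold change -1.34, SE 0.073, edgeR adjusted p = 3.08e-11). Of 10 interleukin 1 receptor family genes, 3 were changed (median 0.0129), Il1rl2 (-3.29) and the interleukin 1 receptor gene Il1r1 (-1.90) higher in QKI knockdown and Il18r1 (1.13) higher in RBFOX2 knockdown. Il1rl1, the interleukin 33 receptor, had high levels in both, at 223, 242 and 229 CPM and 291, 343 and 261 CPM with a control mean of 12.4 CPM, and a direct log2 fold change of -0.37 (SE 0.066), under the fold threshold. Of 11 complement genes, 1 was changed, the regulator gene Cd59 (1.67).

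Of 10 genes of the aryl hydrocarbon receptor pathway, 3 were changed and they did not share a direction (median 0.0599). Cyp1a1 was higher in QKI knockdown (-4.49). Cyp1b1, a related cytochrome P450, stood at 1318, 1466 and 1457 CPM in RBFOX2 knockdown and 349, 366 and 374 CPM in QKI knockdown (log2 fold change 1.96, SE 0.059, edgeR adjusted p = 1.4e-14), against a control mean of 1777 CPM. Aldh3a1, an aldehyde dehydrogenase, stood at 37, 39.7 and 40.5 CPM against 15.1, 15.1 and 17.7 CPM (1.29, SE 0.10) and lay at 2.32 CPM in control. Against control, Cyp1a1 had log2 fold changes of 2.75 in RBFOX2 knockdown and 7.24 in QKI knockdown, Aldh3a1 had 4.07 and 2.78, and Cyp1b1 had -0.33 and -2.29. The receptor gene Ahr itself had a direct log2 fold change of 0.75 (SE 0.053), under the fold threshold. Of 22 targets of the oxidative stress factor NRF2, all passed the adjusted p alone, beside 68.5% of all genes. Changed were 5 of them, 4 higher in QKI knockdown and 1 in RBFOX2 knockdown (median -0.362). Srxn1 (sulfiredoxin, -1.87), Osgin1 (-1.28) and the glutathione transferase gene Gsta1 (-1.24) were higher in QKI knockdown and the efflux pump gene Abcc1 (1.21) in RBFOX2 knockdown.

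Of 26 genes of a list led by D cyclins and CDK inhibitors, 6 were higher in RBFOX2 knockdown and 3 in QKI knockdown (median 0.0705). Besides Ccnd1, Ccnd2 stood at 4.74, 4.65 and 5.11 CPM in RBFOX2 knockdown and 1.54, 2.06 and 1.53 CPM in QKI knockdown (log2 fold change 1.51, SE 0.11, edgeR adjusted p = 2.36e-09), below its control mean of 28.6 CPM in both. The pocket protein genes Rb1 (1.63) and Rbl2 (1.48), which restrain G1 exit, were higher in RBFOX2 knockdown as well, and Sesn2 (-1.79), a stress-induced inhibitor of mTORC1 signalling, higher in QKI knockdown. Of 26 DNA replication genes 1 was changed, the ribonucleotide reductase gene Rrm1 at 245, 243 and 247 CPM against 91.3, 90.7 and 92.5 CPM (log2 fold change 1.42, SE 0.031), with a list median of -0.102. Of 25 mitosis genes 0 were changed by edgeR (median 0.0654), and 18 passed the adjusted p alone, beside 68.5% of all genes. Mki67, the proliferation marker, had a log2 fold change of 0.24 (SE 0.052).

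Of 24 sterol genes 2 were changed (median -0.0567), and of 31 glycolysis and hypoxia genes 2 (median 0.0487). Of 26 unfolded protein and ATF4 response genes 3 were changed (median -0.295). These were shares of 8.33%, 6.45% and 11.5%, beside 18.4% of all genes. Among genes at 5 CPM or more, 1134 of 10661 were changed, also a lower share than over all genes. Of 24 fatty acid genes 5 were changed, 4 higher in QKI knockdown, where the fatty acid binding protein gene Fabp5 stood at 171, 166 and 163 CPM against 50.2, 52.5 and 54.7 CPM in RBFOX2 knockdown (log2 fold change -1.67, SE 0.07, edgeR adjusted p = 9.65e-13). The single gene higher in RBFOX2 knockdown was Cpt1a (1.57), the entry enzyme of mitochondrial fatty acid oxidation.

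Of 25 SR and hnRNP proteins 0 were changed by edgeR, with a median of -0.134. At the adjusted p alone 20 of the 25 passed, beside 68.5% of all genes. Of 19 PTB, CELF, TIA, NOVA, ESRP and STAR factors, 3 (15.8%) were changed, all higher in QKI knockdown, and 2 of them lay under 1 CPM. The third, Ptbp3, a member of the polypyrimidine tract binding family, stood at 96.5, 98.4 and 98.2 CPM in RBFOX2 knockdown and 271, 281 and 274 CPM in QKI knockdown (log2 fold change -1.49, SE 0.041, edgeR adjusted p = 4.62e-15), where the QKI knockdown libraries overlapped those of control, with a mean of 268 CPM. Ptbp2 stood at 16, 16.2 and 16.5 CPM against 31.7, 29.4 and 30.7 CPM (-0.92, SE 0.044), under the fold threshold. Ptbp1, the main member of the family outside neurons, had -0.068, and the STAR gene Khdrbs3 had 0.47.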

How the data were processed

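Poly(A) RNA of PAC-1 cells was sequenced in 12 libraries, and groups were read from the sample labels. The authors deposited raw counts per gene and a normalised signal for a subset of genes. Per the study's methods and the submitters' processing notes, reads were aligned with STAR to mRatBN7.2 and counted with featureCounts on a RefSeq annotation. The deposited signal equals counts plus 5 after a noise filter and quantile normalisation. Strand use and the handling of reads that match several genes are not given in the sources used here. Of count values from 1 to 19, 68.1% were even, against 50.9% above 1000, and library totals exceed the read depth stated in the study's methods. Both reads of a pair may therefore have been counted, in which case a printed count, the 50-count division and the 3-count floor stand for fewer fragments, and a fit on halved counts was an alternative. For the test itself, edgeR 4.0.16 under R 4.3.3 was applied to the counts (filterByExpr by group, TMM, glmQLFit and glmQLFTest, two-sided, 1 fit of 12 libraries, common dispersion 0.00241, Benjamini-Hochberg adjustment over 18438 genes holding 99.99% of counts), with the contrast RBFOX2-KD minus QKI-KD. The SE is the absolute log2 fold change over the square root of F. Alternatives used DESeq2 1.42.0 and limma 3.58.1. The smallest exact permutation p that groups of 3 allow for 1 gene is 0.1. Genes with 3 counts or fewer in each library of a group count as at the floor. The scripts were tested on simulated data.

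The members and the 41 gene lists (942 genes, 860 tested) were chosen with earlier results of these data known. Named genes are the targets and relatives, and the 10 largest differences in each direction at 5 CPM or more. These differences were taken from changed genes whose RBFOX2 and QKI knockdown libraries did not overlap. Named too are the opposite genes at 5 CPM or more and the 5 most abundant changed genes in each direction. Placeholder symbols such as LOC or RGD were left out of these rankings. The rest are up to 4 changed members of each list in each direction at 1 CPM or more, and list members that did not pass. Some genes that meet this rule are not reported here. The build's genome was not used here, so no coordinates are given. siRNA sequences come from the study's supplementary table.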

Additional observations from a re-analysis of the deposited data

How the results depend on the processing

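The direct count of 3389 changed genes was 3384 with the 6 libraries alone, 3392 with RLE size factors, 3379 with library totals only, 3378 with DESeq2, 3519 without a filter, 3071 on halved counts, and 3080 and 2396 in limma on the authors' normalised table with pseudocounts of 1 and 10. Leaving out 1 library gave 3283 to 3347 changed genes (1874 to 1936 higher in RBFOX2 knockdown, 1402 to 1461 in QKI knockdown), and 49 to 61 and 24 to 35 opposite genes, with the lowest counts without control 3 and control 1. The share of changed genes higher in RBFOX2 knockdown ranged from 51.1% to 65.7%, beside 57.9%. Counts moved by over 1.5 times under 5 settings. A mean of at least 200 counts gave 1515 changed genes (996 higher in RBFOX2 knockdown and 519 in QKI knockdown) and 11 and 7 opposite genes, with fewer genes tested. The adjusted p alone gave 12636 (6458 and 6178), and 1372 and 1200 opposite genes. A test against the fold threshold itself (glmTreat) gave 1791 (1114 and 677), and 7 and 2 opposite genes. The normalised table gave 34 and 19 opposite genes with a pseudocount of 1 and 17 and 9 with a pseudocount of 10. These fits differ from the edgeR fit in gene set, normalisation and test, and the cause was not tested. Halved counts gave 52 and 30 opposite genes. The replicate numbers were also fitted as a block. Deviations of same-numbered RBFOX2-KD and QKI-KD libraries correlated at 0.0729, -0.0719 and 0.0482, and not every library correlated best with its own number. Whether same-numbered libraries shared a culture or batch cannot be told from correlations this small, and the labels give only a number. The block gave 3360 changed genes, and 62 and 34 opposite genes. Of 3701 values of single genes under alternatives, 3627 kept their direction and side of the thresholds, 69 lost their call, 3 gained one and 2, both of Col1a1, changed sign without passing the adjusted p. No called value changed sign.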

Other observations

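Ion channel genes differed in both directions, with positive log2 fold changes where RBFOX2 knockdown was higher. Over all genes tested, 18.4% were changed, 10.6% higher in RBFOX2 knockdown and 7.74% higher in QKI knockdown. Of 16 potassium channel genes tested, 50% were changed, 6 higher in RBFOX2 knockdown and 2 in QKI knockdown, with a median log2 fold change of 0.742. Kcnk2, a stretch-sensitive leak channel, stood at 8.34, 7.64 and 8.27 CPM in RBFOX2 knockdown and 1.84, 2.1 and 1.65 CPM in QKI knockdown (log2 fold change 2.12, SE 0.12), without overlap, and Kcnj2, an inward rectifier, had 1.93. Of 38 calcium channel, pump and store genes, 28.9% were changed, 6 higher in RBFOX2 knockdown and 5 in QKI knockdown (median 0.101). The mechanically gated channel gene Piezo2 stood at 46.8, 45 and 43.7 CPM against 10.9, 11.2 and 11.3 CPM (log2 fold change 2.02, SE 0.085), and the plasma membrane calcium pumps Atp2b1 (1.49) and Atp2b4 (1.90) were higher in RBFOX2 knockdown too. Cacnb1 (-2.51), a subunit of voltage-gated calcium channels, and Trpc6 (-3.19) were higher in QKI knockdown.

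Of 50 genes of axon guidance families, which also steer vascular cells, 28% were changed, beside 18.4% of all genes. Of these, 11 were higher in RBFOX2 knockdown and 3 in QKI knockdown (list median 0.331). The netrin receptor gene Unc5b stood at 444, 424 and 419 CPM in RBFOX2 knockdown and 102, 107 and 107 CPM in QKI knockdown (log2 fold change 2.03, SE 0.046), and the Slit receptor gene Robo1 at 65, 65.8 and 63 CPM against 15.5, 16.2 and 17.8 CPM (1.97, SE 0.078). Both separated the groups without overlap. Sema5a (1.92) and the plexin gene Plxna4 (2.25) were higher in RBFOX2 knockdown, and Efna2 (-1.74) and Ephb2 (-1.41) higher in QKI knockdown.

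Among markers of other cell types, epithelial and neuronal genes differed without a shared direction. Of 4 epithelial markers tested, 1 was higher in RBFOX2 knockdown and 3 in QKI knockdown. For 6 neuronal and glial markers these counts were 2 and 1, beside 10.6% and 7.74% of all genes. Krt8, a simple epithelial keratin, stood at 71.8, 72.4 and 73.7 CPM in RBFOX2 knockdown and 31.6, 33.5 and 31.8 CPM in QKI knockdown (log2 fold change 1.17, SE 0.056), while the epithelial marker Cldn4 differed the other way (-5.68). Map2, a microtubule protein of neurons, was higher in RBFOX2 knockdown (1.52), and Tubb3, a neuronal tubulin, higher in QKI knockdown, at 0.925, 0.961 and 0.911 CPM against 2.82, 2.43 and 2.66 CPM.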
